A study of Mus musculus with 9 samples.

Results

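The genes described here are 10 genes of the NF-kB system: the 5 subunits Nfkb1, Nfkb2, Rel, Rela and Relb, the 3 inhibitors Nfkbia, Nfkbib and Nfkbie, the kinase Ikbkb and the feedback gene Tnfaip3. They were taken by gene symbol from an expression table of the mouse tibia, and all 10 were found among its 18272 genes. All 10 also passed the low-count filter (10 or more counts in 3 or more of the 9 libraries), which kept 13960 genes, so that no gene was described through a selected part of the list. RNA-seq libraries had been made from single tibias of 9 female C57BL/6J mice, 3 per group, which were purchased at 10 to 11 weeks of age. The NGT (normal glucose tolerance) mice had been injected with vehicle and are labelled with saline treatment. The T1D (type 1 diabetes) mice had been injected with streptozotocin (STZ), which destroys the beta cells of the pancreas, and then got saline. The Lira mice had received STZ and then liraglutide, a drug that activates the GLP-1 receptor, in a daily dose of 0.6 mg/kg. Treatment began 2 weeks after STZ and lasted 8 weeks by the study's methods, whereas Lira mouse 3 is labelled with 9 weeks. T1D mice and Lira mice thus share STZ, and the model is one of chemical destruction of beta cells. In the text below, mice are numbered 1 to 3 within a group as in the sample labels.

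NF-kB is a family of transcription factors that bind DNA as dimers of the subunits p65 (Rela), c-Rel (Rel), RelB (Relb), p50 (from Nfkb1) and p52 (from Nfkb2). In resting cells the dimers are held in the cytoplasm by inhibitor proteins of the IkB family (Nfkbia, Nfkbib, Nfkbie), and the kinase Ikbkb marks these inhibitors for destruction when receptors of the TNF, interleukin-1 or Toll-like type are engaged. Nfkbia and Tnfaip3 are themselves transcribed by NF-kB and shut the pathway down again, and in bone the pathway is required downstream of RANK for the formation of osteoclasts, the cells that resorb bone. RNA levels say nothing about where the proteins are or whether the inhibitors have been degraded.

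Libraries held between 13086373 and 16528394 counts, and a count of 0 would allow up to 3 counts, which is 0.1815 to 0.2292 CPM (counts per 1000000 of these totals, counting error only). None of the 10 genes was at 0 in any library, and the smallest value was 4 counts, for Nfkbie in NGT mouse 2. Genes that mark bone were present, although in NGT mouse 2 the osteoblast and osteocyte genes Bglap, Sp7, Sost and Mepe and the osteoclast gene Dcstamp were at 0. Skeletal muscle remained in the samples, since 19 muscle genes took between 13.8% and 25.8% of the counts of a library. A pair of libraries stood apart, since 476 genes in T1D mouse 1 and 441 genes in Lira mouse 3 were over 2 times as high as in each of the other 8, against 2 to 83 genes for the rest. The counts at an unadjusted p under 0.05, the list medians and the values of genes that were highest in these mice are also given without both of them, a setting chosen after seeing the data. Counts of genes without overlap between groups are given over the 9 libraries only. These are bulk samples, so fewer cells of a type and less RNA per cell cannot be told apart.

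At the level of transcripts per length, the inhibitors Nfkbia and Nfkbib were the most abundant of the 10 genes and the inhibitor Nfkbie the least abundant. FPKM (fragments scaled for transcript length and library total) are used for levels between genes. The median over the 9 libraries was 34.6 FPKM for Nfkbia, 23.1 for Nfkbib, 12.8 for Rela, 7.89 for Nfkb1, 6.13 for Ikbkb, 4.56 for Nfkb2, 2.86 for Relb, 1.23 for Tnfaip3, 1.04 for Rel and 0.53 for Nfkbie. Nfkbia exceeded Nfkbib in 8 of 9 libraries, the exception being NGT mouse 2, and Rela exceeded Nfkb1 in 9 of 9. At the lower end the order was not fixed. Tnfaip3 exceeded Rel in 6 of 9 libraries (mean log2 ratio of FPKM 0.44, SD 1.18), Rel exceeded Nfkbie in 5 of 9 (0.56, SD 1.80), and for both pairs of neighbours the ratio was smaller than its spread.

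Among the subunits, Rela made up 39.7% to 48.4% of the summed FPKM, Nfkb1 25.0% to 33.6% and Nfkb2 13.1% to 16.1%. Relb ranged from 5.05% (Lira mouse 1) to 14.5% (T1D mouse 1) and Rel from 0.851% (T1D mouse 1) to 4.56% (T1D mouse 3). The 2 subunits of the classical p50 and p65 dimer therefore led in every library and every group. Among the inhibitors, Nfkbia took 48.8% to 61.3% of the summed FPKM in NGT mice, 53.7% to 75.9% in T1D mice and 55.5% to 63.7% in Lira mice.

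Nfkbia (gene 18035), which encodes IkB-alpha, was the only one of the 10 genes whose T1D mice all lay above all NGT mice. Levels of 1 gene across mice are given in CPM, here counts per 1000000 after TMM scaling of the totals over tested genes. In NGT mice 1, 2 and 3, Nfkbia stood at 50.5, 41.6 and 42.2 CPM, in T1D mice at 81.1, 54.7 and 102 CPM, and in Lira mice at 50.0, 57.6 and 57.3 CPM. The lowest T1D mouse, mouse 2, was 54.7 CPM against 50.5 CPM for the highest NGT mouse, and it lay below Lira mice 2 and 3, so that the T1D and Lira groups overlapped. The group means were 44.8 ± 4.98 CPM in NGT, 79.2 ± 23.6 in T1D and 54.9 ± 4.31 in Lira mice (SD, n = 3 each).

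The difference between T1D and NGT mice was 0.82 on the log2 scale (SE 0.22), a 1.77-fold higher level, with an adjusted p of 0.977 by edgeR (quasi-likelihood test, Benjamini-Hochberg over 13960 genes). The unadjusted p was 0.00539 in edgeR's test, at rank 23 of the 13960 genes, and DESeq2 gave an unadjusted p of 0.00104 and, after its own filter, no adjusted p for the 10 genes in this comparison. The exact permutation test over mice (two-sided) gave p = 0.1, the smallest that 3 against 3 mice allow. The difference did not pass the correction over all genes. It was 0.78 (SE 0.27) without T1D mouse 1 and Lira mouse 3, and between 0.60 and 1.02 when each mouse was left out in turn. Lira mice lay 0.53 lower than T1D mice on the log2 scale (SE 0.22, edgeR unadjusted p = 0.0425 and adjusted p = 0.978, exact permutation p = 0.3) and 0.29 higher than NGT mice (SE 0.22, edgeR adjusted p = 0.999). The first of these was -0.54 (SE 0.30, edgeR unadjusted p = 0.112 and adjusted p = 0.99) without T1D mouse 1 and Lira mouse 3, and -0.31 (SE 0.21) without T1D mouse 3. The comparisons of T1D with NGT and of Lira with T1D use the same 3 T1D mice.

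Several inhibitors of NF-kB are known to be transcribed by NF-kB itself, so the promoter windows of the 10 genes were read for its motif. Of the 10 genes, 7 have a window of 250 bases before the transcription start in the RefSeq table used (GRCm38.p6), and Nfkb1, Relb and Ikbkb have none there. The 10-base NF-kB consensus was searched by a script on both strands. Matches were found in 5 of the 7 genes (71.4%), namely Nfkb2, Rel, Nfkbia, Nfkbie and Tnfaip3, and in none of the windows of Rela and Nfkbib. Among all 27025 genes with a window, 1204 (4.46%) held a match. A match is a run of letters and not a measured binding site. The windows of the 3 feedback and inhibitor genes with a match and, for contrast, of the inhibitor Nfkbib without one are shown 5′ to 3′, with the matches in capitals. They are at chr12:55492648-55492897, minus strand (Nfkbia), chr17:45555450-45555699, plus strand (Nfkbie), chr10:19015411-19015660, minus strand (Tnfaip3, the first of 2 windows), and chr7:28766645-28766894, minus strand (Nfkbib).
Nfkbia: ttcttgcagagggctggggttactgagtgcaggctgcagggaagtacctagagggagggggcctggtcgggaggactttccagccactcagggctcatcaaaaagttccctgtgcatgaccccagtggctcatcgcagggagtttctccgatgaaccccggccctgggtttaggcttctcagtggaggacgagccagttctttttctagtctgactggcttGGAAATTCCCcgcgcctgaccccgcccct
Nfkbie: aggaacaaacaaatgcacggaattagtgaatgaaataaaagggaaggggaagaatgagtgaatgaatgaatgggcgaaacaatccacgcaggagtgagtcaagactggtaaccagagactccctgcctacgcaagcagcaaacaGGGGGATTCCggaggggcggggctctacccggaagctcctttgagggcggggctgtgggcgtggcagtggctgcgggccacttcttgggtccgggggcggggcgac
Tnfaip3: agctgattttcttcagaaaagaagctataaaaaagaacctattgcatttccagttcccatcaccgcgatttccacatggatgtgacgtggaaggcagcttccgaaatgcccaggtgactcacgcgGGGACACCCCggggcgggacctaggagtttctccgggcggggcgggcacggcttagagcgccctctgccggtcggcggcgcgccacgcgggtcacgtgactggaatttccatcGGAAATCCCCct
Nfkbib: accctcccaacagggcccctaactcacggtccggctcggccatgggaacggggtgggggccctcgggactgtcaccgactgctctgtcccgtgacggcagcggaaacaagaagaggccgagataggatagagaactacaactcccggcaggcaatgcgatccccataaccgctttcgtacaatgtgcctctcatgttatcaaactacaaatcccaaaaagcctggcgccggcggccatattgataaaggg
The Nfkbia match, read on the reverse strand, lies 29 to 20 bases before the start. The Nfkbie match lies 106 to 97 bases before it, and the Tnfaip3 matches lie 125 to 116 and 12 to 3 bases before it.

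Nfkbib (gene 18036), which encodes IkB-beta and holds no match in its window, differed between the groups by less than the spread between mice. It stood at 26.1, 37.6 and 34.8 CPM in NGT mice, 30.5, 40.5 and 27.4 CPM in T1D mice and 34.3, 37.1 and 26.2 CPM in Lira mice. The log2 difference of T1D from NGT mice was -0.00 (SE 0.22) and that of Lira from T1D mice -0.01 (SE 0.22). The ranges of the 3 groups overlapped.

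Nfkbie (gene 18037), which encodes IkB-epsilon, was the most variable of the 10 genes. NGT mice had 2.67, 0.309 and 1.11 CPM, T1D mice 6.20, 0.655 and 1.40 CPM, and Lira mice 1.43, 0.779 and 3.73 CPM. T1D mouse 1 was the highest at 114 counts and NGT mouse 2 the lowest at 4 counts, a ratio of 20.0 in CPM. The groups overlapped, and the T1D mean of 2.75 CPM against 1.36 CPM in NGT mice had a log2 difference of 1.01 with an SE of 1.00 (edgeR adjusted p = 0.979). Without T1D mouse 1 and Lira mouse 3 it was -0.45 (SE 0.89), a fit that keeps NGT mouse 1, the same-numbered NGT mouse and the highest of its group. In a fit of only T1D and NGT mice that blocks on the number, chosen after seeing the data, it was 0.88 (SE 0.40, edgeR adjusted p = 0.397). The direction thus depended on which libraries were compared and how.

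**Figure D1:**
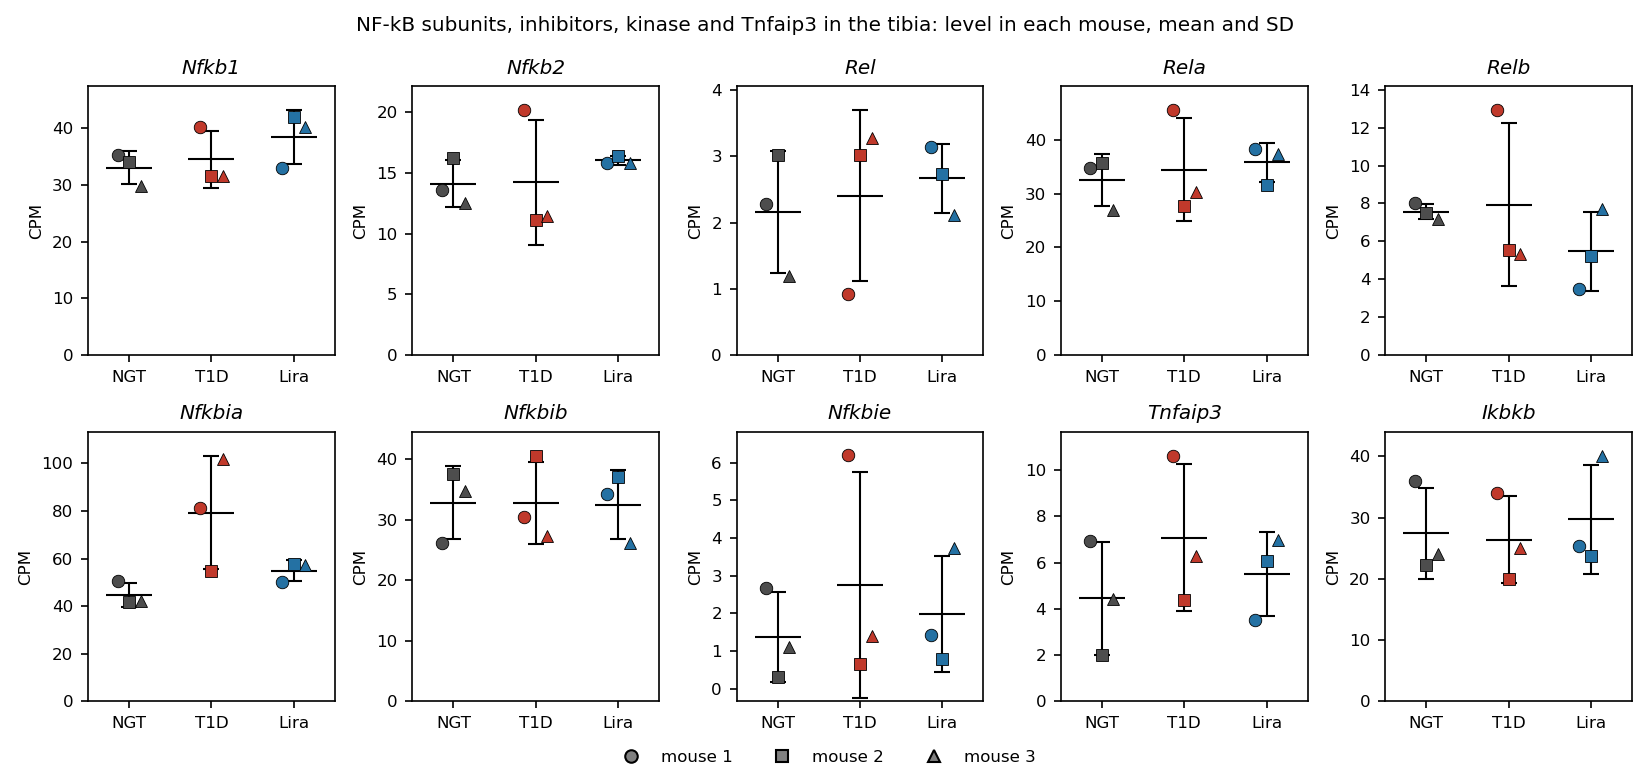
CPM (linear axes) of each of the 10 genes in the 9 mice by group, with points for mice 1 to 3, a horizontal line for the mean and bars for 1 SD (for Nfkbie in T1D mice the bar runs below 0). For Nfkbia the 3 T1D mice sit between 54.7 and 102 CPM, all above the 3 NGT mice at 41.6 to 50.5, while the groups overlap for the other 9 genes.

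Tnfaip3 (gene 21929) encodes A20, a ubiquitin-editing enzyme that switches NF-kB signaling off and that, like Nfkbia, is induced by NF-kB. It stood at 6.92, 2.01 and 4.43 CPM in NGT mice, 10.6, 4.39 and 6.27 CPM in T1D mice and 3.50, 6.07 and 7.0 CPM in Lira mice. T1D mouse 1 was the highest and NGT mouse 2 the lowest, and the groups overlapped. The log2 difference between T1D and NGT mice was 0.67 (SE 0.51, edgeR adjusted p = 0.977). It was 0.23 (SE 0.54) without T1D mouse 1 and Lira mouse 3, 0.26 without T1D mouse 1 alone, 0.32 without NGT mouse 2 and 1.14 without NGT mouse 1, so that its size rested on single libraries. In each of the 3 numbered pairs of T1D and NGT mice the T1D mouse was higher, by 0.61, 1.08 and 0.49 (mean 0.73, SD 0.31), and in a fit of only these 2 groups that blocks on the number, chosen after seeing the data, the log2 difference was 0.73 (SE 0.26, edgeR adjusted p = 0.314).

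The same-numbered comparison is given because same-numbered NGT and T1D mice deviated together from their group means, while the other tests of these groups are unpaired. No source describes these numbers as pairs. For Nfkbia, the T1D mouse was higher by 0.68, 0.39 and 1.27 (mean 0.78, SD 0.45), and for Nfkbie by 1.18, 0.83 and 0.30 (mean 0.77, SD 0.44). These 3 of the 10 genes had the T1D mouse higher in 3 of 3 pairs, as did 19.2% of all tested genes, and 0 had it lower in each pair (all genes 19.0%). For the other 7 the mean of the 3 differences lay between -0.06 and 0.06, with a spread of up to 1.28 for Rel.

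Ikbkb (gene 16150), the kinase that phosphorylates the inhibitors, had 36.0, 22.2 and 24.1 CPM in NGT mice, 34.0, 20.0 and 25.1 CPM in T1D mice and 25.4, 23.7 and 40.0 CPM in Lira mice. The groups overlapped. Lira mouse 3 was the highest library for this gene. The log2 difference was -0.06 (SE 0.29) between T1D and NGT mice and 0.17 (SE 0.29) between Lira and T1D mice. Without T1D mouse 1 and Lira mouse 3 these were -0.31 (SE 0.26) and 0.12 (SE 0.28).

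In the fit over the 9 libraries, the 5 subunits showed no difference between T1D and NGT mice larger than their errors. Without T1D mouse 1 and Lira mouse 3 this did not hold for Rela, Nfkb2 and Relb, as given below. Over the 9 libraries, the log2 differences were 0.06 (SE 0.16) for Nfkb1 (gene 18033), 0.01 (SE 0.25) for Nfkb2 (gene 18034), 0.15 (SE 0.53) for Rel (gene 19696), 0.08 (SE 0.22) for Rela (gene 19697) and 0.07 (SE 0.41) for Relb (gene 19698). The subunit of the smallest spread was Nfkb1, which had 29.7 to 35.3 CPM in NGT, 31.5 to 40.2 CPM in T1D and 33.0 to 41.9 CPM in Lira mice, with a highest-to-lowest ratio of 1.41.

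For Rela, the p65 subunit, T1D mouse 1 was highest at 45.4 CPM, while T1D mice 2 and 3 had 27.7 and 30.2 CPM, the NGT mice 34.8, 35.7 and 26.9 CPM and the Lira mice 38.3, 31.6 and 37.4 CPM. Nfkb2, whose product p52 belongs to the alternative route of the pathway, had 20.1 CPM in T1D mouse 1 and 11.1 and 11.4 CPM in the other 2 T1D mice, whereas NGT mice had 13.6, 16.2 and 12.5 CPM and Lira mice 15.8, 16.4 and 15.8 CPM. Without T1D mouse 1 and Lira mouse 3, the log2 difference of T1D from NGT mice was -0.19 (SE 0.18) for Rela and -0.34 (SE 0.19) for Nfkb2, which turned the sign of both, as it did for Nfkb1 at -0.09 (SE 0.16). Nfkb2 was 0.17 higher (SE 0.25, edgeR adjusted p = 0.978) in Lira than in T1D mice over the 9 libraries, and 0.52 higher (SE 0.20, edgeR adjusted p = 0.99) without those mice.

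Relb, the partner of p52, had 8.0, 7.5 and 7.2 CPM in NGT mice, 12.9, 5.57 and 5.34 CPM in T1D mice and 3.50, 5.22 and 7.69 CPM in Lira mice. The T1D group held both the highest Relb value and values below all NGT mice, and its log2 difference from NGT mice turned from 0.07 (SE 0.41) to -0.50 (SE 0.27) without T1D mouse 1 and Lira mouse 3. Lira mice were lower than NGT mice by 0.47 on the log2 scale (SE 0.41), and by 0.82 (SE 0.28, edgeR adjusted p = 1.0) without T1D mouse 1 and Lira mouse 3. Of the 9 counts of Relb, 6 were not whole numbers (over 0.005 from one), as an estimate gives when reads match more than 1 gene.

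Rel, which encodes c-Rel, ran against the other subunits in T1D mouse 1, where it was lowest at 0.924 CPM against 3.01 and 3.27 CPM in the other T1D mice. NGT mice had 2.28, 3.02 and 1.19 CPM and Lira mice 3.14, 2.73 and 2.12 CPM. T1D mouse 1 was thus the highest library for 5 of the 10 genes (Nfkb2, Rela, Relb, Nfkbie and Tnfaip3) and the lowest for Rel.

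In T1D against NGT mice, 0 of the 10 genes were called (adjusted p under 0.05 and fold change over 2), where 0.0% of all tested genes were called. At an unadjusted p under 0.05, 552 of the 13960 genes stood in edgeR's test and 697 in DESeq2, and DESeq2 called 0. Among the 10 genes, 1 was higher at this p, Nfkbia, against 2.36% of all genes, and 0 were lower, against 1.6%. The T1D and NGT groups did not overlap for 1 gene of 10, again Nfkbia, higher, against 3.52% of all genes, and for 0 genes lower, against 5.08%. The log2 difference was above 0 for 8 of the 10 genes (all genes 52.1%), and their median was 0.08 against 0.02 over all genes. With T1D mouse 1 and Lira mouse 3 left out, it was above 0 for 4 of the 10 genes (all genes 45.4%), the median was -0.14 against -0.03 over all genes, and Nfkbia remained the 1 gene higher at this p (all genes 1.73%).

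In Lira against T1D mice, 0 of the 10 genes were called (0.0% of all genes). Of all genes, 465 reached an unadjusted p under 0.05 in edgeR and 620 in DESeq2, which called 1 gene. Nfkbia was the 1 gene of 10 lower at this p (all genes 1.78%), 0 were higher (1.55%), and the groups overlapped for all 10 genes (of all genes 3.74% were higher and 3.4% lower without overlap). The log2 difference was above 0 for 5 of the 10 genes (all genes 55.3%), and the median was 0.02, against 0.04 over all genes. With those mice left out, Nfkb2, higher, was the 1 gene at this p (all genes 2.31%), 0 were lower (1.24%), 6 of the 10 were above 0 (47.9%) and the median was 0.09 against -0.02. In Lira against NGT mice, 0 of the 10 genes were called (0.0%) and 0 reached an unadjusted p under 0.05, as did 109 of all genes in edgeR (0.487% higher, 0.294% lower) and 155 in DESeq2. The groups overlapped for all 10 genes (2.49% of all genes were higher and 1.78% lower without overlap), and 8 were above 0 (all genes 55.5%), with a median of 0.20 against 0.04 over all genes. Without those mice 7 were above 0 (43.3%), with a median of 0.09 against -0.04, and 1 gene, Relb, was lower at this p (0.501%).

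**Figure D2:**
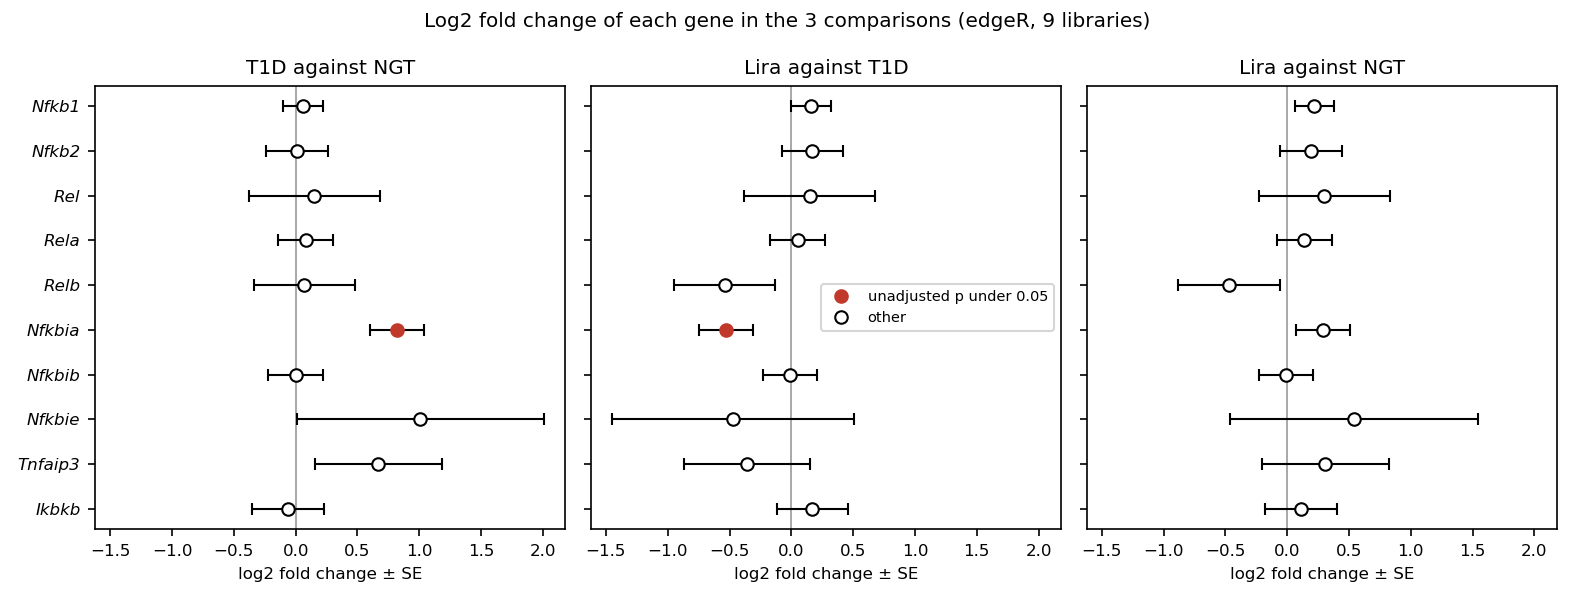
Log2 fold change and its SE for each of the 10 genes in the 3 comparisons (edgeR, 9 libraries), on 1 shared axis. Filled points have an unadjusted p under 0.05, which holds for Nfkbia in T1D against NGT (0.82) and in Lira against T1D (-0.53), and no point passes the threshold after adjustment.

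To set Nfkbia against its partners, ratios of its FPKM to theirs were formed within each library, with the values already known. Over Nfkb1, the ratio was 3.54, 3.04 and 3.52 in NGT mice, 4.97, 4.39 and 8.04 in T1D mice and 3.79, 3.42 and 3.57 in Lira mice. The 3 T1D mice lay above all NGT mice and above all Lira mice, whereas the level of Nfkbia itself overlapped between T1D and Lira mice. Since Nfkbia itself was already seen above all NGT mice, its ratios to Nfkb1 and Rela are no further evidence of that difference. How often ratios of other genes separate in this way was not counted. The exact permutation test gave p = 0.1 for each of these comparisons (adjusted p = 0.3 over 9 such tests), the smallest attainable.

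Over Rela, the ratio was 2.29, 1.85 and 2.48 in NGT mice, 2.80, 3.16 and 5.36 in T1D mice and 2.10, 2.89 and 2.41 in Lira mice. T1D lay above NGT mice without overlap (exact permutation p = 0.1, adjusted p = 0.3) and overlapped with Lira mice (exact permutation p = 0.2, adjusted p = 0.36). Over its sister inhibitor Nfkbib, the ratio was 1.68, 0.956 and 1.05 in NGT mice, 2.30, 1.17 and 3.24 in T1D mice and 1.28, 1.35 and 1.89 in Lira mice, and the groups overlapped. For the 3 inhibitors over the 5 subunits, the values were 1.65, 1.66 and 2.03 in NGT mice, 1.84, 2.47 and 3.10 in T1D mice and 1.83, 2.01 and 1.65 in Lira mice.

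**Figure D3:**
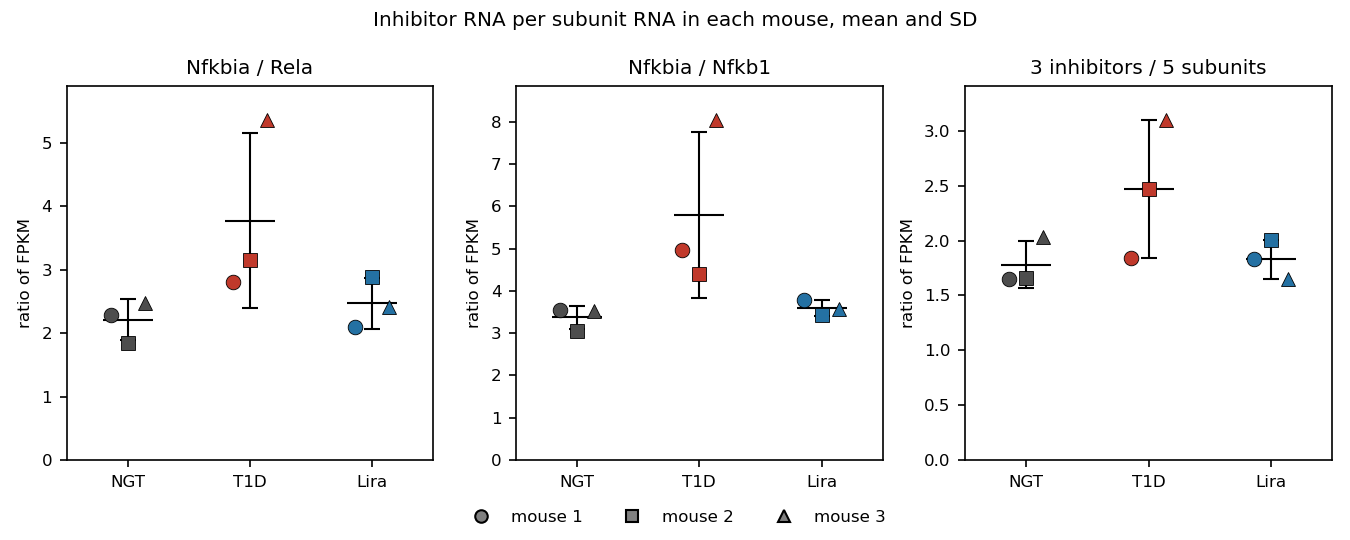
Ratio of FPKM within each library for Nfkbia over Rela, Nfkbia over Nfkb1 and the 3 inhibitors over the 5 subunits, by group, with points for mice 1 to 3, a line for the mean and bars for 1 SD (linear axes from 0). For Nfkbia over Nfkb1 the T1D mice sit at 4.39 to 8.04, above all NGT and Lira mice, which lie between 3.04 and 3.79.

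The 9 libraries differed in the levels of genes that mark cell types, and the libraries at the extremes of these levels were also at the extremes for several of the 10 genes. The summed level of 11 macrophage markers was 2190 CPM in T1D mouse 1, the library that was highest for 5 of the 10 genes, against 108 to 395 CPM in NGT mice, 161 and 264 CPM in the other T1D mice and 214 to 615 CPM in Lira mice. Its leading gene was Lyz2 at 1140 CPM, a gene that neutrophils also express. The 13 osteoblast and osteocyte markers summed to 5590 CPM in the same library and to 207 to 1400 CPM in the others, led by the collagen genes Col1a1 and Col1a2. The lowest library for the sum of 14 neutrophil markers was NGT mouse 2 at 14.2 CPM, with Mpo, Retnlg, Mmp8, Cebpe and Ly6g at 0, and it was also the lowest for Nfkbia, Nfkbie and Tnfaip3. The same mouse had the lowest sums of the osteoclast (139 CPM), osteoblast and osteocyte (207 CPM), erythroid (462 CPM), B cell (17.7 CPM), T and NK cell (1.31 CPM) and macrophage (108 CPM) markers.

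Lira mouse 3 had the highest sums of neutrophil markers (5640 CPM, against 14.2 to 2600 CPM in the other libraries), of 11 tested erythroid markers (29400 CPM, against 462 to 19300) and of 12 tested osteoclast markers (1030 CPM, against 139 to 682). The leading gene of the osteoclast list there, Car2 at 535 CPM, is also a gene of erythroid cells. It was highest for Ikbkb, while its Nfkbia level of 57.3 CPM was close to that of Lira mouse 2 (57.6 CPM), which had neutrophil markers at 132 CPM. T1D mouse 3, the highest for Nfkbia, had erythroid markers at 19300 CPM and macrophage markers at 264 CPM. Markers of B cells summed to 17.7 to 253 CPM over the libraries, of T and NK cells to 1.31 to 28.8 CPM and of endothelial cells to 313 to 589 CPM, and 11 immediate-early genes to 343 to 512 CPM. The part of these cell types in the differences was not tested.

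**Figure D4:**
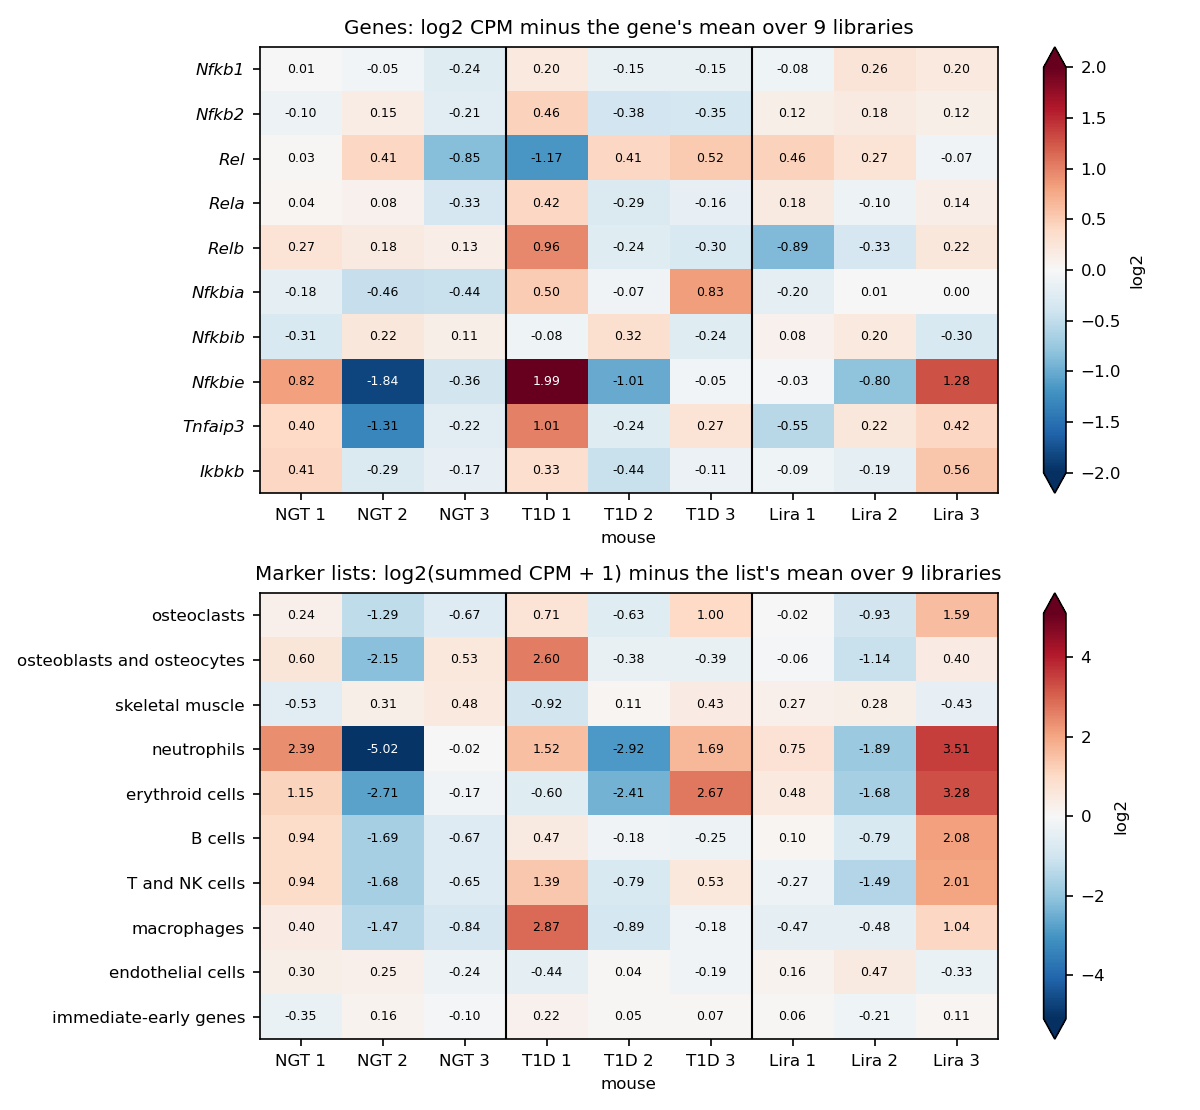
Upper panel: log2 CPM of each of the 10 genes in each mouse minus the gene's mean over the 9 libraries. Lower panel: log2(summed CPM + 1) of each marker list minus the list's mean. Color runs from blue (below the mean) to red (above), with the values printed. Nfkbie and Tnfaip3 are lowest in NGT mouse 2 (-1.84 and -1.31), where the markers of neutrophils (-5.02) and of 6 other cell types are also lowest, and highest in T1D mouse 1 (1.99 and 1.01), where macrophage markers are highest (2.87).

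Genes around the 10 in the pathway were taken from 4 lists. Of 35 kinases and adaptors, all tested, 0 were called in T1D against NGT mice and 1 was higher at an unadjusted p under 0.05, and of the 19 tested of 20 other inhibitors and modulators 1 was. Of the 20 tested of 23 ligands and receptors 2 were higher, and of the 26 tested of 42 target genes 4 were, with 0 lower in each list (all genes 2.36% higher and 1.6% lower). The low-count filter selected the tested targets, and a gene low in NGT mice could pass it through T1D mice. Bcl2a1b did so, with 7, 0 and 2 counts in NGT and 178, 19 and 10 counts in T1D mice. The counts and medians of these lists are thus not free of selection. The median log2 difference was 0.02 for kinases and adaptors, -0.00 for other inhibitors and modulators, 0.67 for ligands and receptors and 0.91 for targets, beside 0.02 over all genes. Without T1D mouse 1 and Lira mouse 3 the medians were -0.05, -0.03, 0.01 and 0.25, beside -0.03 over all genes, and Otulin, higher, was then the 1 gene of these lists at an unadjusted p under 0.05 (all genes 1.73% higher and 2.06% lower). Over the 9 libraries, marker lists had medians of 2.54 (macrophages), 1.18 (osteoclasts), 0.98 (erythroid cells), 0.93 (osteoblasts and osteocytes) and 0.75 (T and NK cells). They were -0.05 for neutrophils, -0.14 for muscle, -0.25 for endothelial cells and -0.34 for B cells. The part of these cells in the pathway medians was not tested.

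The receptors were Tnfrsf11a and Cd14. Tnfrsf11a (gene 21934) encodes RANK, the receptor through which osteoclast precursors activate NF-kB, and stood at 1.78, 0.619 and 0.792 CPM in NGT mice, 7.67, 2.10 and 2.67 CPM in T1D mice and 1.64, 0.935 and 1.95 CPM in Lira mice. T1D mice lay above all NGT and all Lira mice, with log2 differences of 1.95 (SE 0.64, edgeR adjusted p = 0.977) and, for Lira against T1D mice, -1.45 (SE 0.62, edgeR adjusted p = 0.978). This gene was picked by the study on these samples, so it is not independent evidence of its direction. Cd14 (gene 12475), a co-receptor of Toll-like receptors and a gene of monocytes and macrophages, had 1.40, 0.619 and 0.633 CPM in NGT, 9.19, 1.70 and 1.87 CPM in T1D and 1.93, 1.48 and 1.49 CPM in Lira mice, a log2 difference of T1D from NGT mice of 2.25 (SE 0.72), with the highest value in T1D mouse 1, in which macrophage markers were also highest. Leaving out T1D mouse 1 and Lira mouse 3, the log2 difference of T1D from NGT mice was 1.12 (SE 0.59) for Tnfrsf11a and 0.97 (SE 0.53) for Cd14, and that of Lira from T1D mice was -0.88 (SE 0.66) for Tnfrsf11a.

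Among the targets and adaptors, Traf1 (gene 22029), an adaptor that is also a target, had 1.21, 0.387 and 0.792 CPM in NGT mice and 7.28, 1.83 and 1.20 CPM in T1D mice (log2 difference 2.10, SE 0.81). Bcl2a1b (gene 12045), an anti-apoptotic gene, had 0.444, 0.0 and 0.158 CPM in NGT mice and 9.68, 1.24 and 0.667 CPM in T1D mice (log2 difference 4.16, SE 1.40). NGT mice held only 7, 0 and 2 counts of Bcl2a1b, so the size of this difference is uncertain. Near-identical copies of the gene make its count uncertain as well. Junb (gene 16477), an AP-1 subunit, had 9.77, 5.80 and 4.99 CPM in NGT and 20.9, 10.2 and 13.7 CPM in T1D mice (log2 difference 1.12, SE 0.38, edgeR adjusted p = 0.977). Cxcl13 (gene 55985), a chemokine that attracts B cells, had 1.46, 0.0773 and 0.396 CPM in NGT and 15.7, 0.982 and 3.67 CPM in T1D mice (log2 difference 3.35, SE 1.24). NGT mice 2 and 3 held 1 and 5 counts of Cxcl13, so the size of this difference is uncertain. For Traf1 and Cxcl13 the T1D and NGT groups overlapped. For each of these 4 genes T1D mouse 1 was the highest library. Without it and Lira mouse 3 the log2 difference was 0.89 (SE 0.61) for Traf1, 2.12 (SE 1.06) for Bcl2a1b, 0.77 (SE 0.39) for Junb and 1.78 (SE 1.02) for Cxcl13, and for Otulin, described next, 0.51 (SE 0.21). Otulin (gene 432940), which removes linear ubiquitin chains and so limits NF-kB signaling, had 15.8, 17.9 and 13.5 CPM in NGT mice, 28.0, 27.0 and 18.6 CPM in T1D mice and 22.2, 22.5 and 21.5 CPM in Lira mice, a log2 difference of T1D from NGT mice of 0.64 (SE 0.19, edgeR adjusted p = 0.977).

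In Lira against T1D mice, 1 gene of the 4 lists reached an unadjusted p under 0.05 in edgeR, Tnfrsf11a, lower (all genes 1.78%), and 0 were higher (1.55%). The medians were 0.04 for kinases and adaptors, -0.05 for other inhibitors and modulators, -0.42 for ligands and receptors and -0.29 for targets, beside 0.04 over all genes. In the fit that lacks T1D mouse 1 and Lira mouse 3 the medians were -0.06, -0.01, -0.07 and -0.15, beside -0.02 over all genes, and the 1 gene at this p was Cd83, lower, in place of Tnfrsf11a. Since T1D mice enter this comparison and the first with opposite sign, the values are given side by side only. Over the 9 libraries, medians of marker lists were -1.22 for macrophages, -0.93 for osteoblasts and osteocytes and -0.42 for osteoclasts. They were 0.05 for muscle, 0.11 for T and NK cells, 0.21 for endothelial cells, 0.76 for erythroid cells, 1.1 for neutrophils and 1.62 for B cells.

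**Figure D5:**
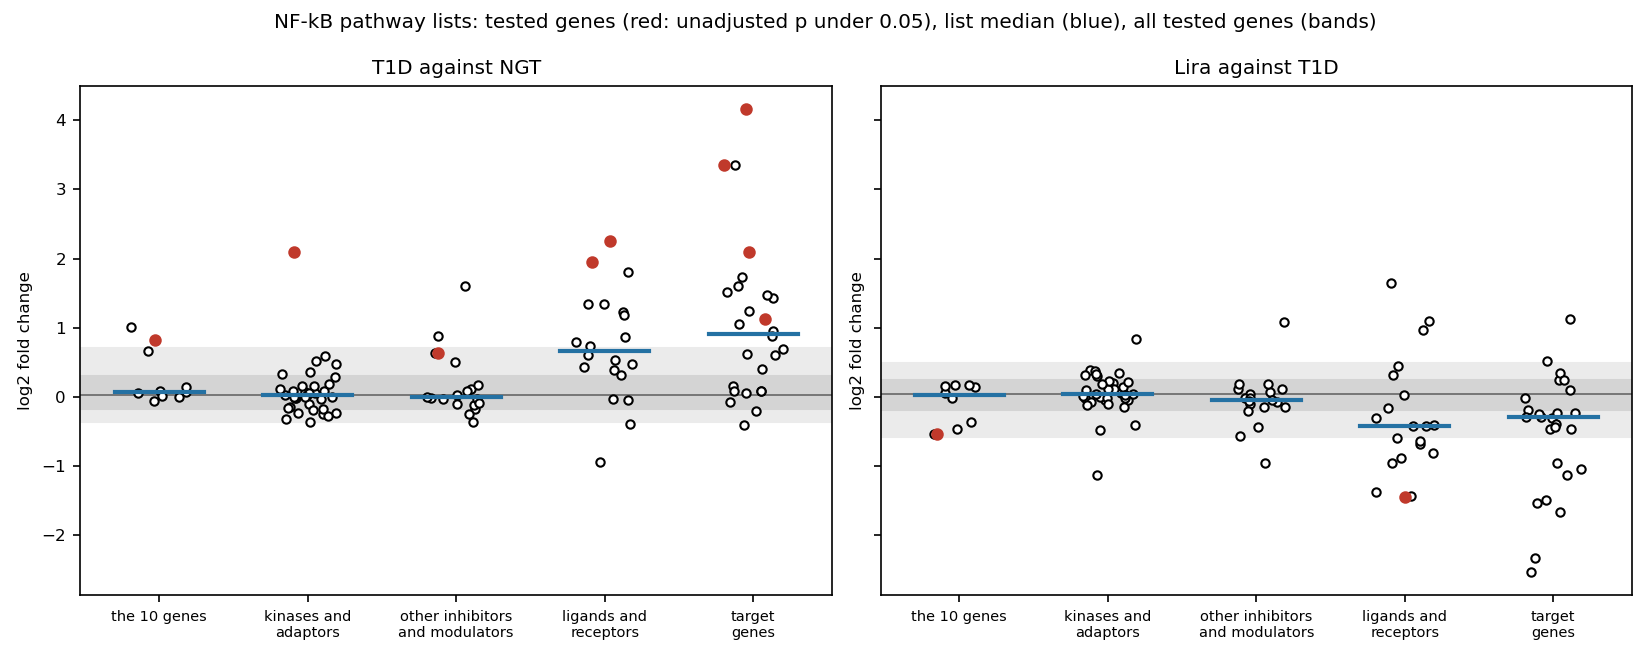
Log2 fold change of each tested gene of the 10 genes and of the 4 pathway lists in T1D against NGT (left) and Lira against T1D mice (right), with list medians as blue lines, genes at an unadjusted p under 0.05 in red, and bands for the 10th to 90th and 25th to 75th percentiles of all tested genes. In T1D against NGT mice the medians are 0.08, 0.02, -0.00, 0.67 and 0.91 from left to right.

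By the root mean square difference of centered log2 CPM over the 9 libraries, the 5 genes nearest to the mean profile of the 10 genes, among 10405 genes of at least 5 CPM, were Mettl9 (0.06), Commd7 (0.07), Ganab (0.08), Dhdds (0.08) and Rab5c (0.09). Within the 10 genes, Nfkb2 and Rela were nearest to each other (0.13), whereas the nearest to Nfkbia was Nfkb1 at 0.40 and the nearest to Rel was Nfkbib at 0.58. The mean profile ran only from -0.29 to 0.46, and no distance was compared with that of genes picked at random. The SD within groups on the log2 scale ran from 0.17 for Nfkb1 to 1.32 for Nfkbie, and 5 of the 10 genes exceeded the median of 0.36 over all tested genes.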

How the data were processed

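RNA was extracted from tibias, enriched with oligo(dT) beads and sequenced as DNA nanospheres. The authors deposited expected counts per gene, estimated from alignments and not normalized, of which 30.2% are over 0.005 from a whole number, and deposited FPKM values adjusted for the length of the gene and the library's total. The submitters' processing notes name build mm9, while the aligner, counting tool and strand setting are not given in the sources used here. Columns of group means were not used.

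Expected counts were rounded and fitted in R 4.3.3 with edgeR 4.0.16 (TMM, glmQLFit and glmQLFTest on 3 group means over 9 libraries, Benjamini-Hochberg adjustment over 13960 genes). Called genes had an adjusted p under 0.05 and a fold change over 2. SEs were derived from the F statistic. Tests are two-sided. Single values were compared by exact permutation, where 3 against 3 mice allow no p under 0.1. The mice of a group are separate animals by the study's methods. FPKM served for levels between genes and ratios. Alternatives used DESeq2 1.42.0, limma 3.58.1 on log2(CPM + 1) and log2(FPKM + 0.1), other scaling and filters, the replicate block and leaving out each mouse.

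Same-numbered NGT and T1D mice correlated at r = 0.583, 0.647 and 0.283 in their deviations from the group means across genes, which is above 0.1 for each. Differently numbered mice of these groups lay between -0.697 and 0.067. No source describes pairs, and whether the numbers pair these samples was not settled. The main fit and the permutation tests are unpaired, and the number enters only as the block and the same-numbered differences. For same-numbered Lira and T1D mice r was -0.244, 0.615 and 0.271, and for same-numbered Lira and NGT mice -0.173, 0.727 and 0.012. The differently numbered Lira mouse 3 and NGT mouse 1 correlated at r = 0.78.

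The 10 genes, the pathway and marker lists and the rule for named genes were chosen with earlier results of these data known. Named genes are all 10, from each pathway list at most the 3 lowest unadjusted p under 0.05 in T1D against NGT and in Lira against T1D, the nearest genes by profile, and others said to be chosen after their values were seen. Promoter windows come from RefSeq (GRCm38.p6). As the deposited data use mm9, no other coordinates are given.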

Additional observations from a re-analysis of the deposited data

How the results depend on the processing

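The count of called genes among the 10 was 0 in every comparison under every alternative run. Nfkbia kept its direction in all 3 comparisons under every alternative. Of 624 recomputed values, 59 single-gene differences and 8 medians of the 10 genes changed sign and 12 counts moved. Those medians were -0.12 without T1D mouse 1 and -0.14 without it and Lira mouse 3 in T1D against NGT mice, and -0.10 with library size, -0.05 with limma on FPKM and -0.08 to -0.02 without T1D mouse 2 or 3 or Lira mouse 1 or 3 in Lira against T1D mice. A further median, of Lira against T1D mice without Lira mouse 2, was -0.00 after rounding and is not among the 8. For the log2 differences that changed sign, the cause was not tested. In T1D against NGT mice, Nfkbib became 0.00 under DESeq2 and in the fit of only the 2 groups, 0.11 with library size in place of TMM and 0.07 with limma on FPKM. Ikbkb became 0.01 with library size and with limma on FPKM. Nfkb2 became -0.02 with the replicate block, -0.03 with the block in only the 2 groups and -0.03 with limma on CPM, and Relb became -0.04 under both of the last settings. Without T1D mouse 1 and Lira mouse 3, a setting chosen after seeing the data, Nfkb1 became -0.09, Nfkb2 -0.34, Rela -0.19, Relb -0.50, Nfkbib 0.03 and Nfkbie -0.45. In Lira against T1D mice, Rela became -0.08 with library size and -0.01 with limma on FPKM, and without those mice Rel became -0.10, Nfkbib 0.07 and Nfkbie 0.11. In Lira against NGT mice without them, Nfkbib became 0.10, Nfkbie -0.34 and Ikbkb -0.19.

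With the replicate block, Nfkbia was 0.80 higher in T1D than NGT mice (edgeR adjusted p = 0.865), and the block changed no call. With the block in only the 2 groups, chosen after seeing the data, the number of genes at an unadjusted p under 0.05 was 2 (Nfkbia and Tnfaip3) in place of 1, while the share of all genes at this p was 14.2% in place of 3.95%. In Lira against T1D mice that number was 0 in place of 1 with library size, only the 2 groups, both block fits and both limma fits, and in Lira against NGT mice it was 1 (Relb) in place of 0 without T1D mouse 1 and Lira mouse 3. Leaving out each mouse gave 1 gene in T1D against NGT, 0 to 1 in Lira against T1D and 0 in Lira against NGT mice, beside 1.61% to 7.31%, 1.86% to 5.3% and 0.423% to 3.22% of all genes. The value of 0 came from leaving out T1D mouse 3 or any Lira mouse. Without T1D mouse 1 the gene was Nfkb2 in place of Nfkbia. The median of the 10 genes then ran from -0.12 to 0.19, from -0.08 to 0.17 and from 0.07 to 0.30. Log2 differences that changed sign with a mouse left out ranged in T1D against NGT mice over Nfkb1 -0.07 to 0.12, Nfkb2 -0.32 to 0.16, Rel -0.14 to 0.54, Rela -0.17 to 0.22, Relb -0.47 to 0.29, Nfkbib -0.18 to 0.11, Nfkbie -0.41 to 1.95 and Ikbkb -0.28 to 0.19. In Lira against T1D mice the ranges were Rel -0.24 to 0.44, Rela -0.09 to 0.30, Relb -0.87 to 0.01, Nfkbib -0.13 to 0.16, Nfkbie -1.32 to 0.95, Tnfaip3 -0.62 to 0.05 and Ikbkb -0.10 to 0.40, and in Lira against NGT mice Nfkbib -0.15 to 0.12, Nfkbie -0.31 to 1.48, Tnfaip3 -0.04 to 0.78 and Ikbkb -0.16 to 0.36. Depth was lowest for Nfkbie, at 4 counts in NGT mouse 2, and its SE of 1.00 in T1D against NGT mice was the largest of the 10 genes.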

Other observations

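The other subunits of the kinase complex around Ikbkb, named after their values were seen, lay lower in T1D than in NGT mice without overlap, by small amounts. Ikbkg (gene 16151), which encodes the scaffold NEMO, had 33.5, 38.1 and 31.8 CPM in NGT, 30.1, 31.4 and 25.3 CPM in T1D and 33.6, 33.6 and 32.3 CPM in Lira mice (log2 difference of T1D from NGT -0.25, SE 0.14, edgeR adjusted p = 0.977). Chuk (gene 12675), the kinase IKK-alpha, had 32.2, 31.2 and 28.5 CPM in NGT, 27.3, 26.5 and 27.7 CPM in T1D and 38.8, 26.6 and 35.2 CPM in Lira mice (-0.17, SE 0.16, edgeR adjusted p = 0.977). Of all tested genes, 5.08% were lower in T1D than in NGT mice without overlap, and 3 of the 35 kinases and adaptors were, the other being Card10.

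In Lira against NGT mice, 3 genes of the lists were higher at an unadjusted p under 0.05 (edgeR), namely Otulin, Tank and Junb, and 0 were lower (all genes 0.487% higher and 0.294% lower). When T1D mouse 1 and Lira mouse 3 were left out, 0 genes of the lists were at this p in that comparison, where Otulin was at 0.48 (SE 0.21), Tank at 0.30 (SE 0.13) and Junb at 0.67 (SE 0.39) on the log2 scale. Tank (gene 21353), a regulator of TRAF signaling, had 24.1, 24.4 and 26.4 CPM in NGT, 26.5, 30.1 and 27.5 CPM in T1D and 30.7, 31.5 and 29.4 CPM in Lira mice, a log2 difference of Lira from NGT mice of 0.29 (SE 0.13, edgeR adjusted p = 0.999). Both STZ groups lay above all NGT mice for 4 of the 96 tested genes of the lists, namely Tank, Otulin, Cd14 and the target Ier3, against 0.444% of all tested genes and 0 of the 10 genes. Both lay below all NGT mice for 1 of the 96, Card10, against 0.372% of all tested genes and 0 of the 10. Ier3 (gene 15937) had 5.27, 5.80 and 4.43 CPM in NGT, 7.28, 6.61 and 6.74 CPM in T1D and 6.28, 5.92 and 5.85 CPM in Lira mice. These genes were named after their values were seen, and the comparisons share the NGT mice.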
